A study of Mus musculus with 12 samples.

Results

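The genes described here are 8 members of 3 families: Zscan4a, Zscan4c, Zscan4d, Zscan4f, Tcstv1, Tcstv3, Pramel6 and Pramel7. Zscan4 and Tcstv genes mark a 2-cell-like state in mouse embryonic stem cells, and the Pramel pair was grouped with them. Probes of the 8 genes were found through the RefSeq accession that each gene-directed array probe carries. This gave 10 of the 55681 gene-directed probes, for 7 of the 8 genes, among 20972 genes with a symbol and a probe. Zscan4c had 3 probes, Zscan4a had 2, and Zscan4f, Tcstv1, Tcstv3, Pramel6 and Pramel7 had 1 each, while no probe was assigned to Zscan4d. The accession behind both Zscan4a probes is annotated as a transcribed pseudogene. The Zscan4 genes lie on mouse chromosome 7, the Tcstv genes on chromosome 13 and the Pramel genes on chromosome 2.

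The early mouse embryo switches on its own genome at the 2-cell stage, and Zscan4 and Tcstv genes are among the transcripts made then. In cultures of embryonic stem cells they come on in bursts, in a small part of the cells at a time, so that a bulk level mixes the number of such cells with the amount of RNA in each. Zscan4 proteins carry a SCAN domain and zinc fingers and are known for their part in telomere lengthening in these cells. Pramel6 and Pramel7 encode leucine-rich repeat proteins of the PRAME family, found in the inner cell mass and in pluripotent cells. Pramel7 is known as a target of STAT3 downstream of LIF and for directing UHRF1, a partner of the DNA methyltransferase DNMT1, to degradation through a Cul2 ubiquitin ligase.

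The start regions of the genes are shown because the Zscan4 probes moved together and the Pramel probes moved differently. Each sequence is the 250 bases before the transcription start in RefSeq (GRCm38.p6), written 5′ to 3′ in the direction of transcription. Capitals mark GATAGAATC, a match on the reverse strand to GATTNNATC (the core of the sequence known to be bound by Dux, a homeobox factor of the 2-cell stage), and TATAAA, the TATA box letters.
Zscan4c, chr7:11005495-11005744, plus strand: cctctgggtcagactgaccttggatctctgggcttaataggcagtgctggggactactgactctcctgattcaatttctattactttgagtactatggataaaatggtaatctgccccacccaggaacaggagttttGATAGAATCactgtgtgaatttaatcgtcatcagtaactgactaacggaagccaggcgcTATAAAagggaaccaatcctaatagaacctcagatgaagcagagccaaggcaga
Zscan4f, chr7:11397665-11397914, plus strand: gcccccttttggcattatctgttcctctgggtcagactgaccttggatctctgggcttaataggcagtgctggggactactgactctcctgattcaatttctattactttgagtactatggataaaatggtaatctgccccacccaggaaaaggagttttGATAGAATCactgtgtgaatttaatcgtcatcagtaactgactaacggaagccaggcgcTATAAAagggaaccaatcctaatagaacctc
Pramel6, chr2:87506315-87506564, plus strand: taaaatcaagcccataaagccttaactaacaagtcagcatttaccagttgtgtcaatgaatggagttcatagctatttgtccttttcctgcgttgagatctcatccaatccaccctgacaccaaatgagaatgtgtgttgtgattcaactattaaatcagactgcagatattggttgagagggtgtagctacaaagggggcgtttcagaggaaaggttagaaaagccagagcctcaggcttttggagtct
Pramel7, chr2:87492419-87492668, minus strand: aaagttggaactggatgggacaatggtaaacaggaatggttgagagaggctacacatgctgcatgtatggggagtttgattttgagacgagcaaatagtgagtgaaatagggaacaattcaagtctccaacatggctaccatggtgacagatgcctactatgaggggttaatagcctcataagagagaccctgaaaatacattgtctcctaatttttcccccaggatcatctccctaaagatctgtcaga

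Both marked letter strings stood in Zscan4c, Zscan4d and Zscan4f and neither in Pramel6 or Pramel7. The Dux letters ended 105 bases before the start in Zscan4c, 116 in Zscan4d and 82 in Zscan4f. The search covered both strands, and of 32851 promoter windows of this length 1.39% held GATTNNATC and 12.4% held TATAAA. Neither TTCNNNGAA, the letters of a STAT site, nor TGCACAC, a motif known for ZSCAN4, stood in any of these 5 windows, against 7.02% and 3.67% of all windows. In alignments of the windows, identity was 89.3% between Zscan4c and Zscan4d, 82.8% between Zscan4c and Zscan4f, 73.6% between Zscan4d and Zscan4f and 45.2% between Pramel6 and Pramel7. The Zscan4 windows are shifted against each other: TATAAA began 54 bases before the start in Zscan4c, 65 in Zscan4d and 31 in Zscan4f. Bases at the ends without a partner counted as not identical, so these shares lie below the identity of the stretch that the Zscan4 windows share. Windows for Tcstv1, Tcstv3 and Zscan4a were not analysed here.

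RNA was hybridised to 12 single-colour Agilent arrays. The 4 groups of mouse embryonic stem cells crossed the genotype (wild-type or Nat1-null) with the medium (LIF or 2i+LIF), with 3 arrays in each. LIF is a cytokine that acts through STAT3 and sustains self-renewal, and it was present in all 4 groups. The 2i supplement blocks the kinases MEK and GSK3. Cells grew on gelatin-coated plates. The names of the wild-type scans carry RF8 and those of the Nat1-null scans carry NAT1_KO. What RF8 stands for, the way the null allele was made and the number of clones are not given in the sources used here. The labels do not say that the replicates came from separate cultures, and p-values then measure only the spread between these samples, which may be technical.

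Levels are log2 signals with the 75th percentile of each array set to 0. Nat1 was read as an earlier name of Eif4g2, which encodes a translation initiation factor related to eIF4G. In LIF its probe read 4.49 ± 0.051 (SD, n = 3) in wild-type and 1.28 ± 0.041 in Nat1-null cells, and in 2i+LIF it read 4.20 ± 0.099 and 1.31 ± 0.096. All 11 embryonic stem cell markers fixed for this report, such as Pou5f1, Sox2 and Nanog, were well above background in all 4 groups. Between 49.8% and 66.3% of 59305 gene-directed spots were well above background on an array. Wild-type LIF arrays lie on slide 1, wild-type 2i+LIF arrays on slide 2 and all Nat1-null arrays on slide 3, so that genotype, and medium in wild-type cells, cannot be told apart from the slide. The medium comparison in Nat1-null cells lies within slide 3. On that slide Nat1-null LIF replicate 3 and the 3 Nat1-null 2i+LIF arrays are in row 2 and the other 2 arrays in row 1, and the lowest signal that counted as well above background was higher in row 2 (-4.64 to -3.91) than in row 1 (-5.44 and -5.22).

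Zscan4 RNA was highest in wild-type cells in LIF, lower in wild-type cells in 2i+LIF, and far lower in Nat1-null cells in either medium. The Zscan4f probe read 5.59, 5.48 and 5.50 on the wild-type LIF arrays and 4.05, 4.09 and 4.11 on those with 2i. On the Nat1-null arrays it read -0.16, 0.093 and -0.24 in LIF and 0.85, 0.92 and 0.75 with 2i. The 4 groups did not overlap, and the spread within a group was at most 0.17 (SD). The Zscan4c probe A_55_P2019533 gave the same order, with 4.10, 3.99 and 4.08, then 2.69, 2.79 and 2.67, then -1.90, -1.94 and -1.89, and last -0.88, -1.07 and -1.18 in the same order of groups. In bulk samples such as these, fewer Zscan4-expressing cells and less Zscan4 RNA per cell cannot be told apart.

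The other 4 Zscan4 probes followed this order too. Zscan4c A_55_P2007017 had means of 3.56 ± 0.076, 2.37 ± 0.062, -2.10 ± 0.28 and -1.25 ± 0.12 (SD, n = 3) in the 4 groups in that order. The dimmest, Zscan4c A_52_P363843, had means of 1.54 ± 0.083, -0.14 ± 0.094, -4.22 ± 0.47 and -3.20 ± 0.23, and was not well above background on Nat1-null LIF replicate 3. The Zscan4a probes had means of 3.89 ± 0.069, 2.53 ± 0.023, -1.99 ± 0.10 and -1.18 ± 0.085 (A_55_P2007016) and of 3.39 ± 0.076, 2.05 ± 0.059, -2.73 ± 0.019 and -1.83 ± 0.25 (A_65_P06115). No group of any Zscan4 probe overlapped with another group of the same probe. The share of all tested probes without overlap between groups was not counted for this report. Zscan4 paralogs are near copies of each other and the letters of the probes were not analysed here, so whether a probe read RNA of another paralog, Zscan4d included, was not tested, and the 6 probes are not 6 independent readings.

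**Figure D1:**
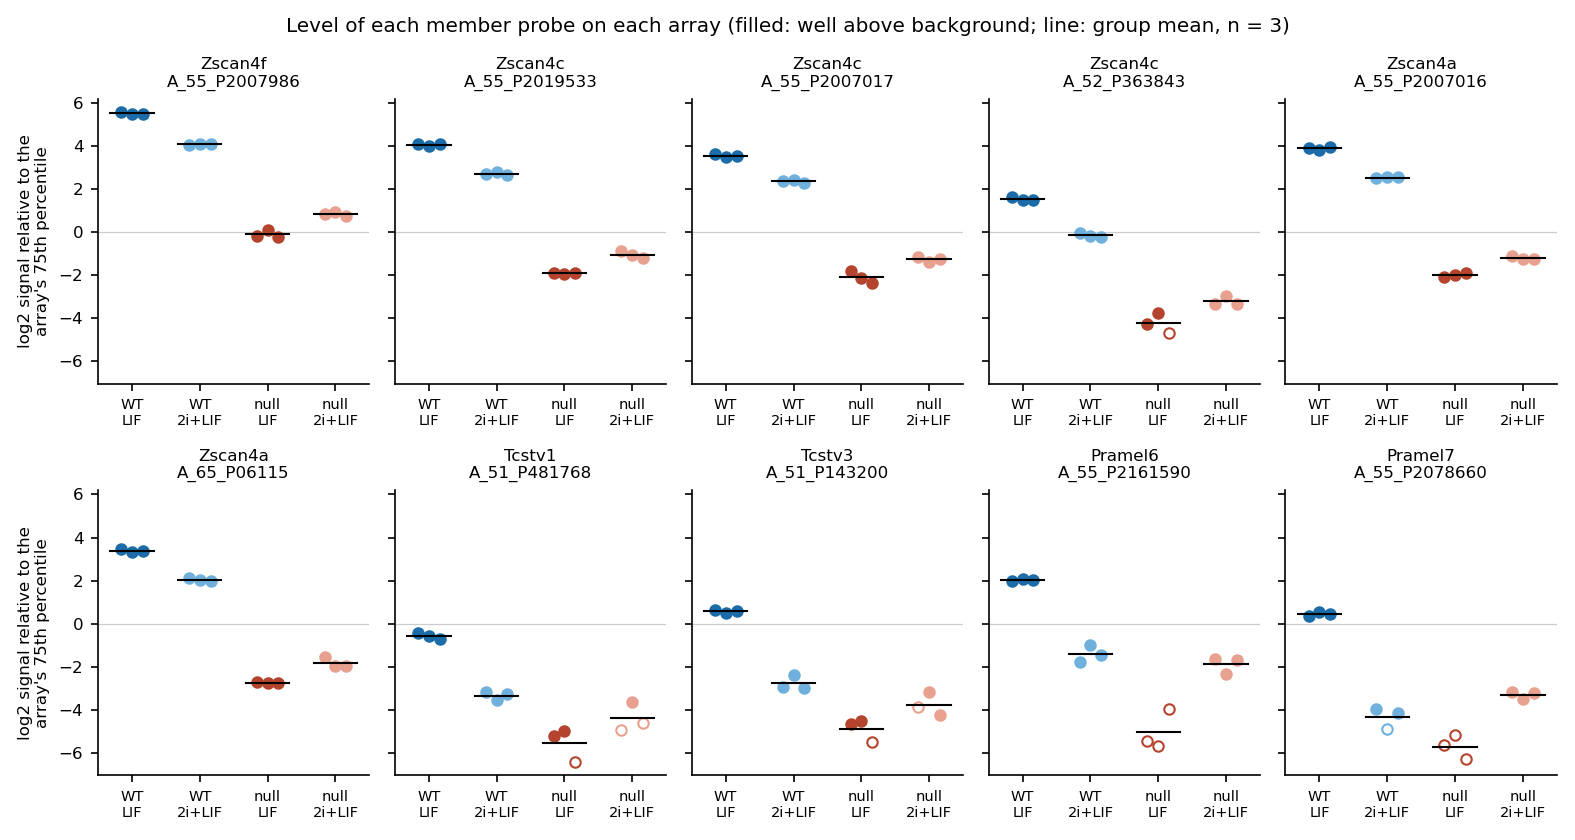
Level of each of the 10 probes (vertical axis, log2 signal, 75th percentile of the array at 0) on each of the 12 arrays, by group (WT, wild-type; null, Nat1-null). Points are arrays, filled where the spot was well above background, and lines are group means; wild-type LIF arrays stand highest for every probe, and Pramel7 alone stands higher on all Nat1-null 2i+LIF arrays than on all wild-type 2i+LIF arrays.

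In wild-type cells, Zscan4 RNA fell with 2i. Zscan4f fell by 1.44 on the log2 scale (SE 0.086, limma adjusted p = 6.1e-07), which is 2.72-fold, and the 6 Zscan4 probes fell by 2.29-fold to 3.20-fold. Together with the Tcstv and Pramel probes, all 10 probes were called lower, against 26.3% of the 33286 tested probes called lower and a median difference of 0.072 over all of them. The median of the 10 was -1.56. Without scaling between arrays, 13.2% of all called probes were higher in 2i+LIF, against 56.8% with it, and the 10 member probes kept their direction and their call.

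Loss of Nat1 in LIF lowered Zscan4 RNA by 49.4-fold (Zscan4f) to 69.6-fold (Zscan4a A_65_P06115). Zscan4f fell by 5.63 (SE 0.086, limma adjusted p = 2.3e-10). All 10 probes were called lower, against 31.6% of all probes, with a median of -5.82 against 0.033 over all probes. The split of all calls moved from 51.8% higher to 40.3% higher without scaling.

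In 2i+LIF the genotype difference of Zscan4 was smaller but still large. Zscan4f fell by 3.24 (SE 0.086, limma adjusted p = 2.9e-08), and the 6 Zscan4 probes by 8.33-fold to 14.7-fold. Of the 10 member probes 7 were called lower and 1 higher, against 22.2% lower and 19.8% higher among all probes. Of all called probes 47.1% were higher in Nat1-null cells, and 75.1% were without scaling.

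In Nat1-null cells, 2i raised Zscan4 RNA rather than lowering it. Zscan4f rose by 0.94 (SE 0.086, limma adjusted p = 3.4e-05), or 1.92-fold, and the 6 probes rose by 1.75-fold to 2.03-fold. All 10 member probes were called higher, against 19.3% of all probes. Of all called probes 54.8% were higher, and 20.8% were without scaling. Nat1-null LIF replicate 3 shares row 2 of the slide with the 2i+LIF arrays. On it Zscan4f read -0.24, below the Nat1-null LIF arrays in row 1 (-0.16 and 0.093). Pramel6 read -3.97 on it, above those arrays (-5.43 and -5.70), and was not well above background on any of them. The part of the row in the rises with 2i was not tested. Zscan4 in Nat1-null cells with 2i stayed below wild-type cells in both media: the 6 probes were 25.7-fold to 37.3-fold below wild-type LIF.

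Tcstv1 and Tcstv3 also peaked in wild-type cells in LIF but lay closer to background, and in wild-type cells they fell more with 2i. Tcstv3 read 0.65, 0.50 and 0.57 in wild-type cells in LIF and -2.92, -2.38 and -2.96 with 2i. Nat1-null arrays read -4.65, -4.50 and -5.51 in LIF and -3.87, -3.18 and -4.25 with 2i. In the same order of groups Tcstv1 read -0.44, -0.56 and -0.72, then -3.19, -3.56 and -3.26, then -5.22, -4.99 and -6.42, and then -4.95, -3.62 and -4.61. The groups of each gene did not overlap, although the gap between the Nat1-null groups was small, at -4.95 against -4.99 for Tcstv1. How many of all tested probes show no overlap was not counted. In Nat1-null LIF each gene was well above background on 2 of 3 arrays, and in Nat1-null 2i+LIF Tcstv1 was on 1 and Tcstv3 on 2.

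With 2i in wild-type cells Tcstv3 fell by 3.33 (SE 0.31, limma adjusted p = 1.2e-05), and Tcstv1 by 2.76 (SE 0.40, limma adjusted p = 2.0e-04), or 6.78-fold. With loss of Nat1 in LIF, Tcstv3 fell by 5.46 (44.0-fold, limma adjusted p = 2.4e-07) and Tcstv1 fell by 4.97 (31.4-fold, limma adjusted p = 2.3e-06). With normexp background correction Tcstv3 fell by 3.63 and Tcstv1 fell by 2.78 with loss of Nat1 in LIF, and both calls held. With 2i in wild-type cells the normexp falls were 2.61 for Tcstv3 and 1.89 for Tcstv1, also called.

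Loss of Nat1 in 2i+LIF had a smaller and less certain difference for this pair. Tcstv3 fell by 1.01 (SE 0.31, limma adjusted p = 0.026), and Tcstv1 differed by -1.06 (SE 0.40, 95% interval -1.95 to -0.17), which missed the threshold at limma adjusted p = 0.056. The Tcstv3 call ended without Nat1-null 2i+LIF replicate 1 (limma adjusted p = 0.071) or 3 (0.092), without wild-type 2i+LIF replicate 2 (0.096), without scaling (0.063) and without the filter on dim probes (0.051), while with normexp Tcstv3 fell by 0.49 and was called. Tcstv1 passed without Nat1-null 2i+LIF replicate 2 (-1.45, limma adjusted p = 0.012), without Nat1-null LIF replicate 2 (0.046) or 3 (0.018), and with normexp (-0.52, limma adjusted p = 0.0055).

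With 2i in Nat1-null cells Tcstv3 rose by 1.12 (SE 0.31, limma adjusted p = 0.020) and Tcstv1 by 1.15 (SE 0.40, limma adjusted p = 0.047), and with normexp by 0.53 and 0.37, both called. Neither call held in a fit of the 6 Nat1-null arrays alone, where limma adjusted p was 0.10 and 0.17. Both also ended without Nat1-null LIF replicate 3, where the values were 0.81 and 0.71, and without Nat1-null 2i+LIF replicate 2, where they were 0.83 and 0.77. The Tcstv1 call ended in 10 of the 12 fits that left out an array.

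Pramel6 and Pramel7 had the largest falls with 2i in wild-type cells among the 10 probes. Pramel6 read 1.98, 2.07 and 2.03 in wild-type cells in LIF and -1.76, -1.004 and -1.45 with 2i. In Nat1-null cells it read -5.43, -5.70 and -3.97 in LIF and -1.64, -2.32 and -1.68 with 2i. Pramel7 read 0.38, 0.52 and 0.44, then -3.94, -4.89 and -4.16, then -5.64, -5.18 and -6.29, and then -3.17, -3.49 and -3.22. Neither gene was well above background on any Nat1-null LIF array, and Pramel7 was on 2 of 3 wild-type 2i+LIF arrays. The 2 groups in 2i+LIF overlapped for Pramel6 and did not overlap for Pramel7, and the share of all tested probes without overlap was not counted.

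With 2i in wild-type cells Pramel7 fell by 4.78 (SE 0.29, limma adjusted p = 6.8e-07), or 27.4-fold, and Pramel6 by 3.43 (SE 0.40, limma adjusted p = 4.9e-05), or 10.8-fold. In LIF, Pramel6 was at least 120-fold lower in Nat1-null cells (limma adjusted p = 2.2e-07) and Pramel7 at least 42.4-fold lower (limma adjusted p = 6.3e-08). These are lower bounds against the lowest signal that was well above background on each Nat1-null LIF array, or the probe's own signal where that was higher. With 2i in Nat1-null cells Pramel6 was at least 7.96-fold higher (limma adjusted p = 2.7e-04) and Pramel7 at least 3.17-fold higher (limma adjusted p = 1.9e-04). These bounds hold for the processed signal only. With normexp the values lay below them: Pramel6 was 32.7-fold and Pramel7 13.1-fold lower with Nat1 loss in LIF, and 2.81-fold and 1.81-fold higher with 2i in Nat1-null cells, and all 4 calls held.

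The genotype difference of the Pramel pair in 2i+LIF was small and did not run one way. Pramel7 was 2.05-fold higher in Nat1-null cells (log2 difference 1.04, SE 0.29, limma adjusted p = 0.016). That call ended without wild-type 2i+LIF replicate 2, the array on which Pramel7 was not well above background (0.75, limma adjusted p = 0.058), and without Nat1-null 2i+LIF replicate 1 (0.97, limma adjusted p = 0.0502), and with normexp the difference was 0.38. Pramel6 differed by -0.48 (SE 0.40, limma adjusted p = 0.37), with a 95% interval from -1.37 to 0.42.

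**Figure D2:**
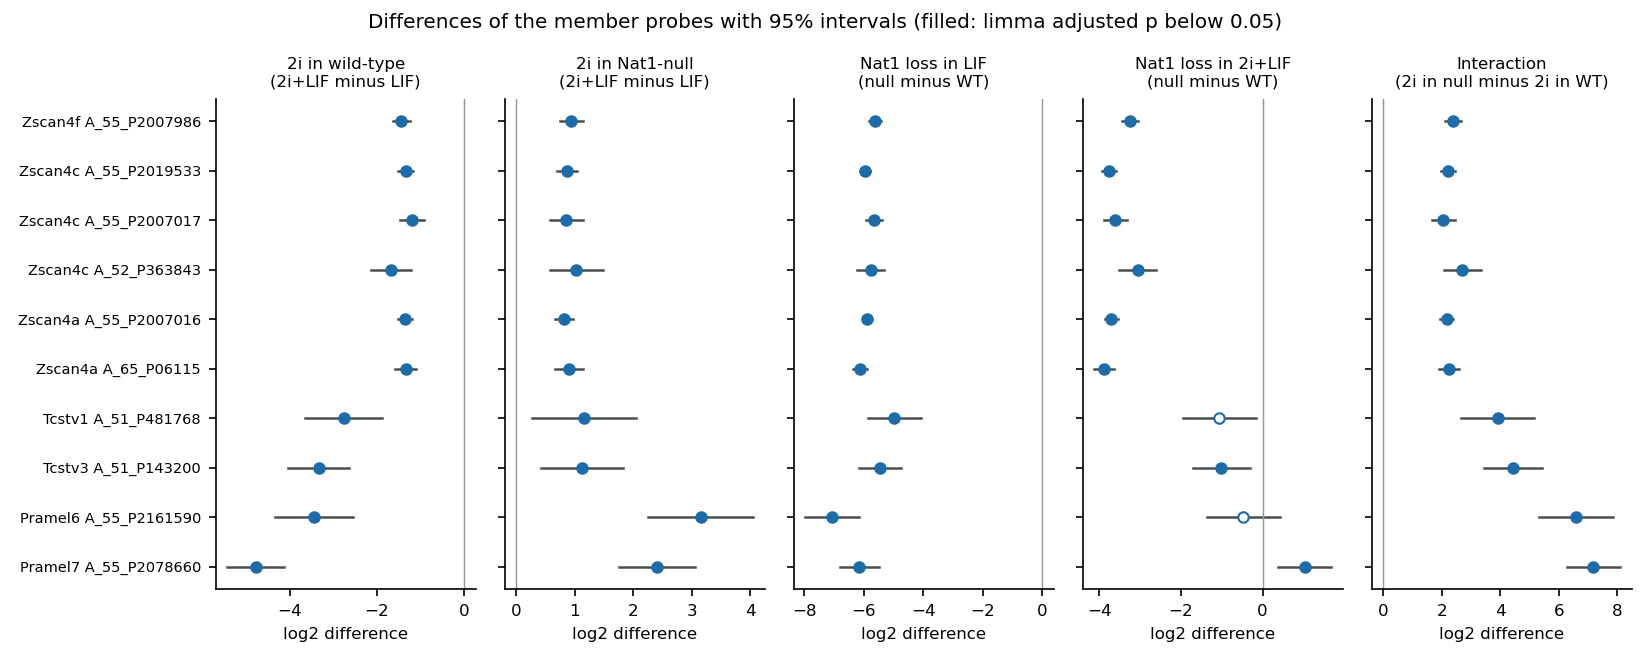
Log2 differences (horizontal axes) of the 10 probes in 4 comparisons and in the interaction, with 95% intervals from limma; filled points have an adjusted p below 0.05. All points lie below 0 for 2i in wild-type cells and for Nat1 loss in LIF and above 0 for 2i in Nat1-null cells, and only Pramel7 lies above 0 for Nat1 loss in 2i+LIF.

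The response to 2i had opposite signs in the 2 genotypes for all 10 probes. The test of this difference, the genotype by medium interaction, was called for all 10, with the 2i response higher in Nat1-null cells by 2.04 to 2.70 for the Zscan4 probes, by 3.92 and 4.45 for Tcstv1 and Tcstv3, and by at least 6.43 and 6.44 for Pramel6 and Pramel7. The Pramel values hold the Nat1-null LIF arrays, where neither probe was well above background, at their background limit, and the fitted values were 6.59 and 7.19. These bounds hold for the processed signal only. Among all probes 21.9% had a higher response. The share of higher values among all interaction calls was 45.6%, and 77.1% without scaling. With normexp the interaction was 2.26 for Tcstv1, 3.14 for Tcstv3, 4.59 for Pramel6, 4.09 for Pramel7 and 2.34 for Zscan4f, all called.

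Across genotype and medium, Nat1-null cells in LIF lay below wild-type cells in 2i+LIF for all 10 probes, all called, against 28.5% of all probes called lower. The fall was 16.9-fold to 27.5-fold for the Zscan4 probes, 4.63-fold for Tcstv1 and 4.38-fold for Tcstv3, and at least 11.1-fold for Pramel6 and at least 1.55-fold for Pramel7. With normexp it was 1.85-fold for Tcstv1, 2.03-fold for Tcstv3, 3.80-fold for Pramel6 and 1.39-fold for Pramel7, all called. Of all called probes 43.4% were higher here, and 83.8% without scaling. Nat1-null cells in 2i+LIF lay below wild-type cells in LIF for all 10, against 31.6% of all probes called lower, by 14.1-fold for Tcstv1, 20.3-fold for Tcstv3, 15.0-fold for Pramel6 and 13.4-fold for Pramel7. Tcstv1 was well above background on 1 and Tcstv3 on 2 of the 3 Nat1-null 2i+LIF arrays, and with normexp these falls were 5.29-fold, 8.57-fold, 11.6-fold and 7.22-fold. Of all called probes 53.7% were higher here, and 28.9% without scaling. These comparisons and those above share groups of arrays and are not independent of each other.

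From high to low, the Zscan4 and Tcstv probes ran from wild-type LIF through wild-type 2i+LIF and Nat1-null 2i+LIF to Nat1-null LIF, with all Zscan4 neighbours in that order apart beyond their spread. For the Tcstv pair the neighbours from wild-type 2i+LIF downward rested on the calls described above. For Pramel7 the 2 groups in 2i+LIF changed places, and for Pramel6 they did not differ beyond their spread.

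The change of the other genes relative to Zscan4f was compared within arrays, as the difference of the 2 log2 levels on each array, for 4 genes and 6 comparisons, 24 in all. The exact permutation test of 3 against 3 arrays cannot go below p = 0.10, and the smallest adjusted value was 0.13. With 2i in wild-type cells Tcstv3 fell by 1.89 more than Zscan4f, Tcstv1 by 1.32 more, Pramel6 by 1.99 more and Pramel7 by 3.33 more, with no overlap between groups (exact permutation p = 0.10 each). With Nat1 loss in LIF the Tcstv3 and Zscan4f changes differed by 0.16 (exact permutation p = 0.40, groups overlapping) and those of Tcstv1 and Zscan4f by 0.65 (exact permutation p = 0.30, groups overlapping). With 2i in Nat1-null cells the Tcstv1 and Tcstv3 changes differed from that of Zscan4f by 0.21 and 0.18 (exact permutation p = 0.70 each, groups overlapping). With normexp these rises were 0.37 for Tcstv1, 0.53 for Tcstv3 and 0.84 for Zscan4f. In 2i+LIF the fall of Zscan4f with Nat1 loss exceeded that of Tcstv3 by 2.23, of Tcstv1 by 2.18, and of Pramel6 by 2.77, and Pramel7 differed from it by 4.28.

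Over the 12 arrays the 6 Zscan4 probes correlated at 0.991 to 0.9997 in 15 pairs. Tcstv1 and Tcstv3 correlated at 0.987, Pramel6 and Pramel7 at 0.906, and Zscan4 with Pramel probes at 0.719 to 0.880. These values describe the 4 groups more than the arrays, since all points share their group means. After the group means were removed, the Zscan4 pairs ranged from -0.388 to 0.907.

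Markers of other cell types moved with some of these differences. Of 18 fibroblast and feeder cell genes 17 were tested, all well above background in wild-type LIF, and the log2 of their summed signal was 8.69 to 8.77 there, 7.38 to 7.46 for wild-type 2i+LIF, 6.91 to 7.12 for Nat1-null LIF, and 7.60 to 7.69 for Nat1-null 2i+LIF. Col3a1, Col6a1, Col6a2, Postn, Dcn and Thbs1 passed the filter through wild-type LIF alone, the group where they are high, which favours a fall from it. Without these 6, a choice made after seeing the data, Nat1 loss in LIF lowered 7 and raised 1 of 11. The median was -1.27, and -3.89 with them. With 2i in wild-type cells 6 of the 11 were lower and 2 higher. Of all probes 31.6% were lower and 33.9% higher with Nat1 loss in LIF, and 26.3% and 34.6% with 2i. Fn1 rose in both comparisons and Pdgfrb with 2i. The summed level of 7 trophoblast genes was 7.47 to 7.66, 4.63 to 4.77, 3.53 to 3.77 and 5.10 to 5.15 in the same order of groups. That of 7 germ cell and oocyte genes was 3.57 to 3.63, 4.06 to 4.09, 3.28 to 3.68 and 3.30 to 3.78. A summed signal follows the brightest genes of a list most. Of the trophoblast genes, Hand1 passed the filter through wild-type LIF alone. Eomes was called higher with 2i in wild-type cells and with Nat1 loss in LIF, and Tfap2c with 2i only. The other trophoblast genes were lower in both. The part of such cells in the Zscan4, Tcstv and Pramel differences was not tested.

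Most of the further genes listed for the 2-cell program also fell with 2i in wild-type cells and with Nat1 loss, while most were not called for 2i in Nat1-null cells. The list holds 52 further gene names, of which 43 are in the annotation, 34 have a probe and 28 were tested. Some belong to 1 family, such as the Usp17l and the Tdpoz genes. Whether their probes read RNA of each other was not tested, so the genes counted here are not all independent readings. Tdpoz2, Tdpoz3, Pramel48 and Arg2 passed the filter through wild-type LIF alone, the group where they are high, which favours a fall in the comparisons with that group. With Nat1 loss in LIF 24 of the 28 were called lower and 4 higher (Zfp352, Sp110, Trim43c and Aqp3), with a median of -3.03, beside 31.6% lower and 33.9% higher of all probes. Without those 4 genes, a choice made after seeing the data, 20 of 24 were lower and 4 higher. With 2i in wild-type cells 20 were lower and 4 higher (Zfp352, Sp110, Pif1 and Aqp3), with a median of -1.72, beside 26.3% lower and 34.6% higher of all probes, and without those 4 genes 16 of 24 were lower, with a median of -1.44. In 2i+LIF, Nat1 loss lowered 19 and raised 2 (Zfp352 and Trim43c), with a median of -1.24 against -0.0080 over all probes, beside 22.2% lower and 19.8% higher. With 2i in Nat1-null cells 7 were higher, 3 lower (Zfp352, Cphx1 and Trim43b) and 18 not called, beside 19.3% higher and 15.9% lower of all probes. With Nat1 loss in LIF the deubiquitinase genes Usp17lb and Usp17la fell by 5.40 and 5.22, and Gm8300 and Gm2022 by 5.36 and 5.18 (limma adjusted p below 0.05 for each). No tested probe was assigned to Duxf3, the Dux gene itself.

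Zfp352, a zinc finger gene also known from 2-cell embryos, had the opposite order of groups. Wild-type cells had a level of 1.63 ± 0.099 in LIF and 2.82 ± 0.038 with 2i, and Nat1-null cells had 4.68 ± 0.13 in LIF and 3.62 ± 0.15 with 2i (SD, n = 3). It rose by 1.19 with 2i in wild-type cells and by 3.06 with Nat1 loss in LIF, and fell by 1.07 with 2i in Nat1-null cells (limma adjusted p = 3.5e-06, 4.5e-09 and 2.6e-05). The groups that were highest for Zscan4 were lowest for Zfp352.

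**Figure D3:**
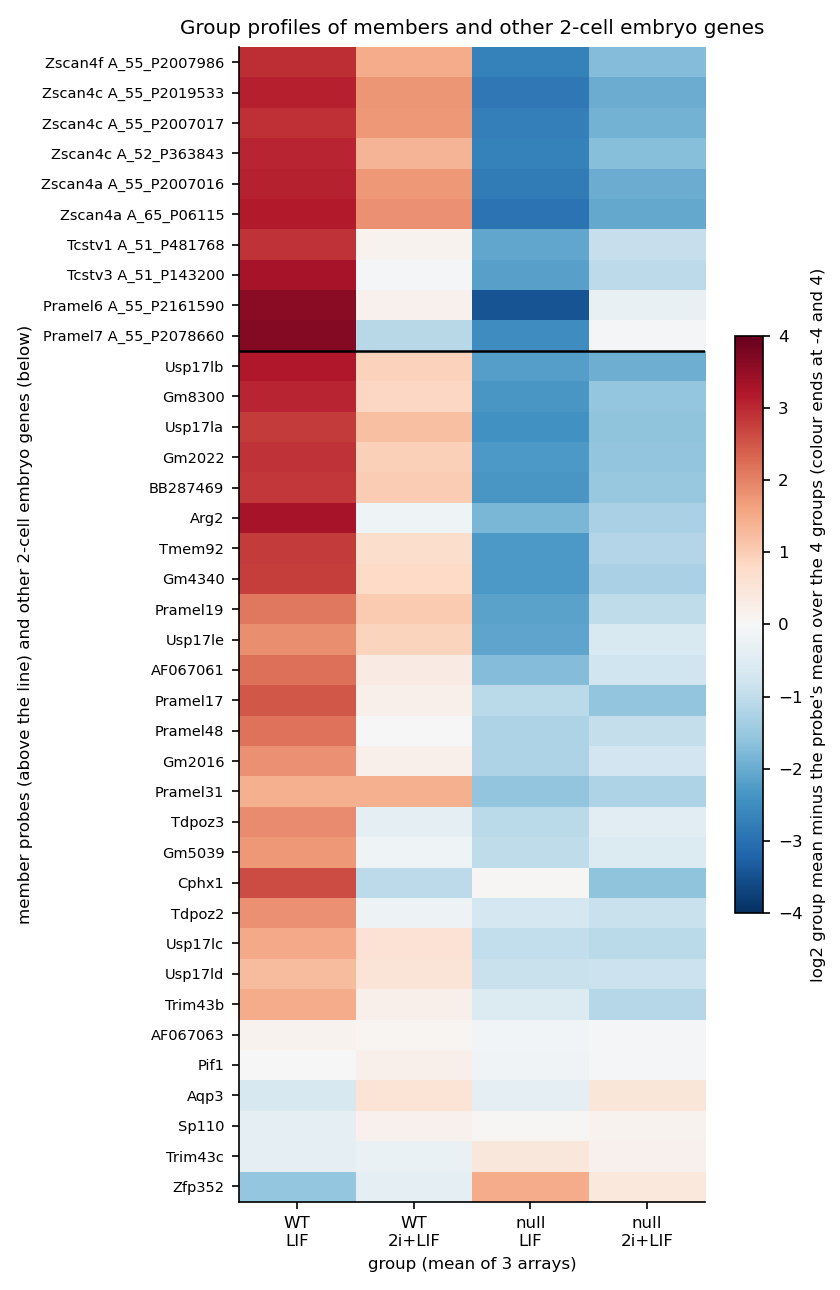
Group means of the 10 member probes (above the line) and of the 28 tested genes of the 2-cell list (below), each minus the mean of that probe over the 4 groups, in log2 units by colour. The genes below the line are ordered by their difference with Nat1 loss in LIF. Most genes are highest in wild-type LIF, and Zfp352 at the bottom is highest in Nat1-null LIF.

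Of the other Pramel family genes, 11 of the 22 with a probe were tested, and 3 of them (Pramel17, Pramel19 and Pramel31) also stand in the 2-cell list. Pramel21 and Pramel24 passed the filter through wild-type LIF alone. Without them, a choice made after seeing the data, Nat1 loss in LIF lowered 7 and raised 1 of 9, with a median of -2.09, and with them it lowered 9 of 11, beside 31.6% lower and 33.9% higher of all probes. Pramel19 fell by 4.27 and Pramel17 by 3.58, while Pramel12 rose by 0.52. With 2i in wild-type cells 3 of the 9 were lower and 2 higher (Pramel13 and Pramel20), with a median of 0.0068, and 5 of the 11 were lower, beside 26.3% lower and 34.6% higher of all probes. Of 9 other SCAN domain zinc finger genes 5 rose and 2 fell with Nat1 loss in LIF, beside the same shares of all probes (33.9% higher and 31.6% lower). Zscan10, a pluripotency factor, rose by 0.86, and Zscan5b was at least 6.27-fold lower.

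Known repressors of the state changed in both directions. Of 30 repressors 17 rose and 6 fell with Nat1 loss in LIF (median 0.34), beside 33.9% higher and 31.6% lower of all probes. For 2i in wild-type cells 14 rose and 3 fell (median 0.089), beside 34.6% higher and 26.3% lower. Trim28, a corepressor of retroelements, rose by 0.71 with Nat1 loss in LIF, the histone demethylase gene Kdm1a by 0.35 and the chromatin assembly gene Chaf1a by 0.33, while Zfp42 rose by 0.57 and Rif1 differed by 0.12 (limma adjusted p = 0.42). Without scaling all probes shifted by a median of -0.15 in this comparison. The largest change among these 30 in both comparisons was in Lin28a, which encodes an RNA-binding protein: it fell by 1.68 with Nat1 loss in LIF and by 2.34 with 2i in wild-type cells, where Zscan4f fell by 1.44.

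Of 17 genes listed as activators, a role that was not tested here, 13 rose and 2 fell with Nat1 loss in LIF (median 0.63). Of all probes 33.9% were higher and 31.6% lower. For 2i in wild-type cells 8 rose and 4 fell, beside 34.6% higher and 26.3% lower, so that these counts lie near the shares over all probes. Dppa2, which with Dppa4 is known to act upstream of Dux, fell by 1.44 with 2i in wild-type cells and differed by -0.45 with Nat1 loss in LIF (limma adjusted p = 0.11). Dppa4 fell by 0.57 with 2i and differed by 0.030 with Nat1 loss in LIF (limma adjusted p = 0.84). Dppa3, a maternal factor that protects the early genome from demethylation, followed the members: it fell by 3.98 with 2i in wild-type cells and by 6.68 with Nat1 loss in LIF, and rose by 2.92 with 2i in Nat1-null cells. Tbx3, Smad7 and Tet2 rose with Nat1 loss in LIF by 3.27, 2.79 and 2.29.

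RNA of the partners of Pramel7 changed by smaller amounts. Uhrf1 RNA rose by 1.01 with 2i in wild-type cells and by 0.70 with Nat1 loss in LIF, and Dnmt1 by 1.01 and 1.02. Cul2 rose by 0.30 and fell by 0.19. Of 8 tested genes of this list 5 rose and 1 fell with 2i in wild-type cells, and 4 rose and 2 fell with Nat1 loss in LIF. Of 24 telomere maintenance genes 8 rose and 8 fell with Nat1 loss in LIF, and 7 rose and 9 fell with 2i in wild-type cells. Of these Pot1b passed the filter through wild-type LIF alone, and without it 7 fell with Nat1 loss in LIF and 8 fell with 2i. Among all probes 33.9% were higher and 31.6% lower with Nat1 loss in LIF, and 34.6% and 26.3% with 2i in wild-type cells, so that the telomere counts lie near these shares, which also stand beside the counts for the partners of Pramel7.

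Genes near the members on the chromosome were not all alike. Between Tcstv1 and Tcstv3 on chromosome 13, Gm20767 fell by 4.13 with Nat1 loss in LIF, AF067061 by 3.92 and BC147527 by 3.29, and with 2i in wild-type cells by 1.95, 1.85 and 2.04. B020031M17Rik, in the same stretch, fell by 0.56 with Nat1 loss in LIF. These 3 larger falls are in genes next to Tcstv genes, and whether their probes read Tcstv-like RNA was not tested. Around the Zscan4 genes on chromosome 7, 8 flanking genes differed by between -2.35 (Vmn2r35) and 0.99 (Zfp606) in the same comparison. Near the Pramel pair on chromosome 2, the flanking olfactory receptor genes read between -5.18 and -2.64 in all groups.

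By the root mean square distance of profiles over the 12 arrays, each centred on its own mean, the named genes nearest to Zscan4f were Bche (0.25), Tspan7 (0.35), Gm38423 (0.35), Klhl13 (0.35), Usp17la (0.36) and Hpgd (0.37). Bche encodes butyrylcholinesterase, and its mean level was 0.64 and -0.89 in wild-type cells without and with 2i, and -4.89 and -4.01 in Nat1-null cells. Its correlation with Zscan4f was 0.994. All 5 other Zscan4 probes lay within 0.32 of Zscan4f, Tcstv1 and Tcstv3 at 0.93 and 0.94, Pramel6 at 1.21 and Pramel7 at 1.62.

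Nearest to Pramel7 were Ccn2 (0.41), Lpar6 (0.54), Gadd45g (0.55), Dppa3 (0.58), Fthl17a (0.59) and Ccn1 (0.60). Ccn2 encodes a secreted matricellular protein, and its level was 4.85, 0.38, -0.50 and 1.35 in wild-type LIF, wild-type 2i+LIF, Nat1-null LIF and Nat1-null 2i+LIF arrays. Pramel6 lay at 1.08 from Pramel7, farther than these 6 genes and than Tcstv3 (0.89) and Tcstv1 (0.96).

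**Figure D4:**
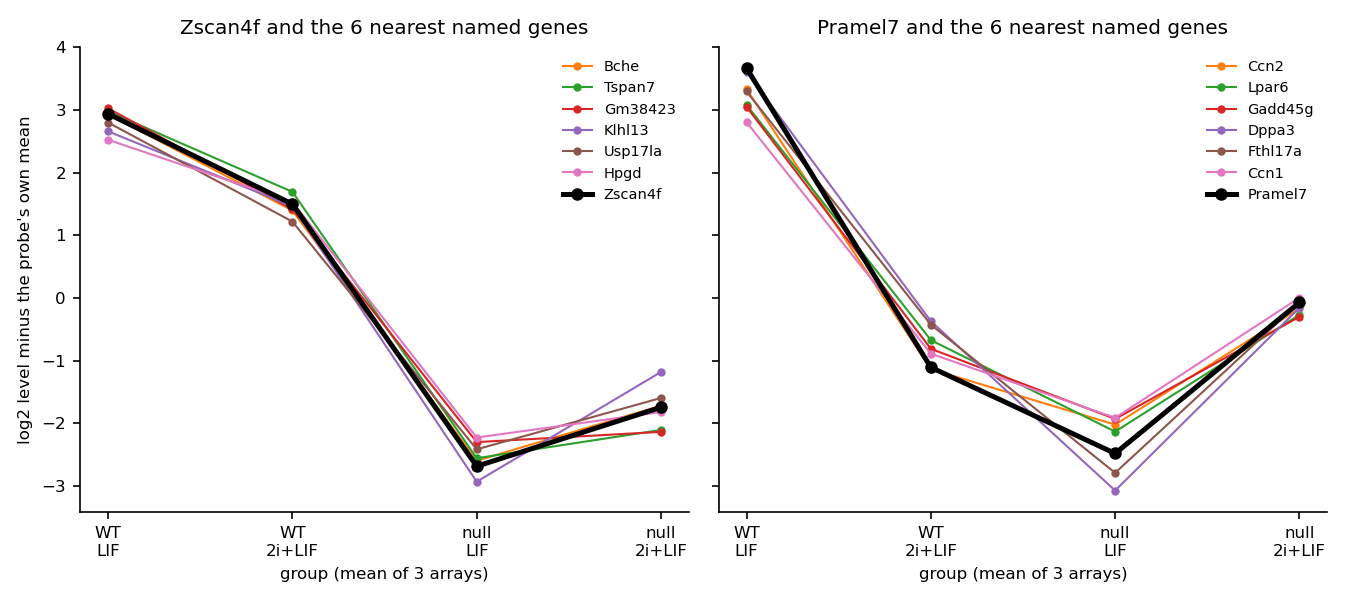
Group means (vertical axis, log2 level minus the mean of the probe over the 4 groups) of Zscan4f and the 6 named genes nearest to it (left) and of Pramel7 and its 6 nearest (right). The Zscan4f set falls mainly between the genotypes, and the Pramel7 set falls with 2i in wild-type cells and rises with 2i in Nat1-null cells.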

How the data were processed

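Agilent Feature Extraction 10.7.3.1 wrote the scanner files, whose processed signal is a background-subtracted intensity per the file headers. The log2 values in the table that the authors deposited for the series matched those recomputed from the scanner files (correlation 1 on each array). Processed signals of gene-directed spots without an outlier mark were averaged per probe on the log2 scale and shifted so that the 75th percentile of an array is 0. Probes with a value on all 12 arrays numbered 54229, and 33286 of these were tested because every array of some group showed them well above background. The test was limma (3.58.1, R 4.3.3) per probe with a mean per group, and Benjamini-Hochberg adjusted two-sided p below 0.05 over all tested probes was a call. All 10 member probes passed the filter. Symbols came from RefSeq accessions and the GRCm38.p6 annotation, for 27656 of 55681 probes. Intensities carry no read depth, and the number of arrays limits the precision. The script was tested on simulated data.

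The members, lists and tests were chosen with earlier results of these data known. Named were all member probes, up to 4 called genes per list with the largest differences, a fixed set of regulators, and the 6 genes nearest in profile to Zscan4f and to Pramel7. Neighbours on the chromosome were chosen by position. Genes named because they went against the rest of their list were chosen after their values were seen. Alternatives were normexp, no scaling, quantile normalization, the deposited series values, other filters, other probes per gene, fewer groups, a replicate block and leaving out arrays. Normexp used the median spot signal in place of the mean. Equal replicate numbers did not pair samples: the correlation of deviations was above 0.1 in 1 of 18 pairs. Tables and figures used Python 3.11.15, pandas 2.3.3, numpy 2.4.6, scipy 1.17.1 and matplotlib 3.10.9.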

Additional observations from a re-analysis of the deposited data

Results flagged for a closer look

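The response to 2i differed between the genotypes for all 10 probes by the interaction test (limma adjusted p at most 3.1e-04). Of all 33286 tested probes, 16033 were called for the interaction, and 21.9% were called with a higher response in Nat1-null cells. In log2 units, the response in Nat1-null cells minus that in wild-type cells was 2.38 for Zscan4f, 2.21, 2.04 and 2.70 for Zscan4c probes A_55_P2019533, A_55_P2007017 and A_52_P363843, and 2.17 and 2.24 for Zscan4a probes A_55_P2007016 and A_65_P06115. It was 3.92 for Tcstv1, 4.45 for Tcstv3, 6.59 for Pramel6 and 7.19 for Pramel7. The Pramel values are fitted against Nat1-null LIF arrays on which neither probe was well above background. With those arrays at their background limit they are at least 6.43 and 6.44, which holds for the processed signal only. With normexp the Pramel values were lower, at 4.59 and 4.09, and those of Tcstv1 and Tcstv3 were 2.26 and 3.14. For every member probe all wild-type arrays were lower with 2i and all Nat1-null arrays higher, a pattern whose share among all probes was not counted. Each genotype lies on slides of its own, so genotype and slide cannot be told apart here.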

How the results depend on the processing

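Of 1404 values of the 10 probes under alternatives, 1376 kept their direction and side of the threshold, 24 kept the direction but lost the call, 4 gained it and none reversed; 23 moved by over 1.5 times, 18 of them with normexp, where dim probes changed less. Keeping only probes well above background on all 12 arrays left 5 Zscan4 probes, and all 5 were called in each of the 7 comparisons. Of all 24937 probes kept by this filter, 10832 (2i in Nat1-null cells) to 18129 (Nat1-null 2i+LIF against wild-type LIF) were called. Leaving out 1 array gave 8 to 10 called probes for 2i in Nat1-null cells, 6 to 9 for Nat1 loss in 2i+LIF and 10 to 10 for the other 5 comparisons. With a replicate block, counts were 8 for Nat1 loss in 2i+LIF and 10 elsewhere, and no call changed. The Tcstv1 call for 2i in Nat1-null cells also ended without the filter on dim probes (limma adjusted p = 0.090), without scaling (0.091) and with the deposited series values (0.0501), and the cause was not tested. Fitting only the 6 Nat1-null arrays called 6019 probes for 2i, against 11721 in the fit of all arrays. Without scaling, all probes shifted by a median of -0.57 for 2i in wild-type cells, 0.22 for Nat1 loss in 2i+LIF, -0.19 for 2i in Nat1-null cells and 0.37 for the interaction, and no member changed direction. Slide as a block was not run because each group lies on 1 slide.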
